A study of Rattus norvegicus with 20 samples.

Results

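The enzymes described here are the phase II conjugating enzymes measured on a rat liver expression array: every probe set (a group of short probes read as 1 value) listed with a single gene whose symbol starts with Ugt, Gst, Mgst or Sult. The rule took 42 of 15866 probe sets, for 39 of 10411 genes on the array. There were 9 probe sets for UDP-glucuronosyltransferases (Ugt), 16 for glutathione S-transferases (Gst), 3 for microsomal glutathione S-transferases (Mgst) and 14 for sulfotransferases (Sult). The 9 include those for Ugt8, a galactosyltransferase that the rule took by its name. Of the 42, 29 probe sets for 29 genes were among the 9520 bright enough to be tested, and 13 were not. The rule used names and no measured value.

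Conjugating enzymes attach a polar group to drugs, steroids, bile acids and reactive lipids, which makes them easier to excrete. Most Ugt enzymes, in the endoplasmic reticulum, transfer glucuronic acid from UDP-glucuronate. Sult enzymes in the cytosol transfer sulfonate from PAPS, and Gst and Mgst enzymes add glutathione. The liver carries all of these families at high levels, and nuclear receptors such as PXR (Nr1i2) and CAR (Nr1i3) and the oxidant sensor Nrf2 are known to act on many of their genes.

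All groups were male Wistar rats, an outbred laboratory strain, that entered the diets at 6 weeks of age. Diets were unrestricted (the control) or restricted by 5, 10, 20 or 30%, for 1 week or 1 month, and livers were taken after a fast of 16 h. The labels give 6 weeks for the 1 week arrays and 9 weeks for the 1 month arrays without saying at which point, so duration and age cannot be told apart. RNA of 5 rats was pooled per group, which made 10 pools, and every pool was hybridised to 2 arrays. Each condition therefore had 1 pool, and p-values rest on how far pools departed from the fitted model, not on the spread between rats. The series title gives mild restriction as the subject. In whole liver, fewer cells of a type and less RNA per cell cannot be told apart.

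The 20 arrays were put on a common scale, since their deposited 2% trimmed means ran from 38.8 to 99.6 signal units. Over the probe sets tested, arrays of the same pool correlated at 0.948 to 0.971 and arrays of different pools at 0.916 to 0.970. Hepatocyte markers were high, with a summed signal of 33900 to 34200 units in the control pools and 31700 to 34200 in the restricted pools, and 0 of 7 were called by dose or step. All 4 lymphocyte markers had mean signals under the lowest mean signal tested, 11.7 units. The array's own RNA integrity measure, the 3′ over 5′ signal of Gapdh, was 1.51 and 1.52 in the control pools and 1.30 to 1.61 in the restricted pools, with 1.46 and 1.30 in the 30% pools. The same ratio for actin was 2.73 and 2.72 in the control pools and 2.23 to 3.07 in the restricted pools, with its lowest values, 2.23 and 2.28, in the 30% pools.

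The members with the largest rises were Sult2a6, a hydroxysteroid and bile acid sulfotransferase, and Ugt2b1, a hepatic glucuronosyltransferase for steroids and drugs. Their promoters are shown because both genes rose by dose, by the step and at 30% restriction. Sult2a6 lies in a gene cluster with Sult2a1 and Sult2a2, whose probe sets stayed under the signal filter, so these promoters are set beside it. The sequences are from RefSeq, build GRCr8, from 250 bases before to 50 bases after each start. Sult2a6 is at chr1:84097759-84098058, Sult2a1 at chr1:84638898-84639197 and Sult2a2 at chr1:85104483-85104782, all on the minus strand, and Ugt2b1 is at chr14:21378632-21378931 on the plus strand. Capitals mark matches to the inverted repeat IR0, a form of nuclear receptor site, searched as GNTCA followed directly by its reverse complement TGANC, which reads the same on both strands.
Sult2a6: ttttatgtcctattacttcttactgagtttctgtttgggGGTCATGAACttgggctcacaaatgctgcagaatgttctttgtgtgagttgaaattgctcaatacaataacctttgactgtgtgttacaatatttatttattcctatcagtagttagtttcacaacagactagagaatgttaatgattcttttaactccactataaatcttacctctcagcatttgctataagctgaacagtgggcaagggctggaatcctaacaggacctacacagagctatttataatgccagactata
Sult2a1: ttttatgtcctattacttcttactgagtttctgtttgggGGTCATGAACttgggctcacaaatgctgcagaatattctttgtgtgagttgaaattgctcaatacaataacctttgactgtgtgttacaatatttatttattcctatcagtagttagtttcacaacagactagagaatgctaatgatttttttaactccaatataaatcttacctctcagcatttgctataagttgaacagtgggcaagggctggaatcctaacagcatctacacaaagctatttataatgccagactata
Sult2a2: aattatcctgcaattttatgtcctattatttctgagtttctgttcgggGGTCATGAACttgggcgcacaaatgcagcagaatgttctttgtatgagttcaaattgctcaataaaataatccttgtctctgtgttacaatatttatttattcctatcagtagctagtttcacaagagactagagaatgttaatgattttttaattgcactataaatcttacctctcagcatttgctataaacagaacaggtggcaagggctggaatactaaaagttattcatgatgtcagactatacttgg
Ugt2b1: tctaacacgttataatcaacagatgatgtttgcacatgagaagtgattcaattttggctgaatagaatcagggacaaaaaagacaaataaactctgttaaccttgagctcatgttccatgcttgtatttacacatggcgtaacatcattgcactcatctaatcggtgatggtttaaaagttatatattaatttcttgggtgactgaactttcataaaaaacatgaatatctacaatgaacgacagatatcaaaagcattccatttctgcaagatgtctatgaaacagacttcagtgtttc
The match was GGTCATGAAC in all 3 Sult2a promoters, at positions -211 to -202 from the start in Sult2a6 and Sult2a1 and -202 to -193 in Sult2a2. The letters do not occur in this window of Ugt2b1. Of all 33469 RefSeq promoters 109 held a match (0.326%), and among the 34 member genes with a promoter there it was found in 4, the other being Gstz1.

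The 3 Sult2a promoters were near copies of each other. Sult2a6 and Sult2a1 had 292 of 300 aligned bases in common (97.3%), and Sult2a6 and Sult2a2 had 257 of 282 (91.1%). Of the 4 other motifs searched on both strands, the antioxidant response element core TGACNNNGC was in 12.1% of all promoters and in those of Gsta1, Gsta3, Gstm5, Gstm7, Gstp1 and Gstz1. The E-box CACGTG was in 6.42% of all promoters and in those of Gsto1 and Sult2b1, and the D-box TTATGTAA was in 0.893% and in that of Gsta3. The HNF1 half-site GTTAAT was in 7.45% of all promoters and in those of Gsta1, Gsta3, Sult2a2 and Sult2a6. Each match is a run of letters only.

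Along the range of diets, 4 of the 29 tested members rose with increasing restriction and 0 fell. These were Sult2a6, Ugt2b1, Gsto1 and Gsta1, 13.8% of the members beside 3.76% of all probe sets tested (1.80% rising and 1.96% falling). The dose trend is the log2 change over 30 percentage points of restriction with duration as a covariate, and a member was called at an adjusted p under 0.05 (limma, Benjamini-Hochberg over all 9520 probe sets, n = 10 pools). The other 25 members did not pass, and estimates were above 0 in 15 members and below 0 in 14. The median estimate was 0.02 on the log2 scale over the members and 0 over all probe sets, and the median size was 0.16 and 0.19. At an unadjusted p under 0.05 there were 7 of 29 members (24.1%) and 1809 of all probe sets (19.0%).

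Sult2a6 had the largest range of any tested member, with pool signals 5.85-fold apart. At 1 week its signal was 32.4 and 19.7 units on the control arrays, 25.8 and 39.5 at 5%, 85.7 and 61.9 at 10%, 99.5 and 83.4 at 20%, and 96.0 and 108 at 30%. At 1 month it was 30.8 and 27.8 units in control, 66.6 and 92.1 at 5%, 67.2 and 53.4 at 10%, 104 and 96.8 at 20%, and 126 and 172 at 30%. At 1 month every restricted array lay above both control arrays, while at 1 week the 5% arrays overlapped the controls. The 30% pools stood 4.03-fold above control at 1 week and 5.04-fold at 1 month. The Sult2a6 slope was 2.00 ± 0.299 (log2, SE, n = 10 pools) over 30 percentage points, a 4.01-fold rise (limma adjusted p = 0.0061). Within each duration its slope was 2.06 ± 0.443 at 1 week (adjusted p = 0.0606) and 1.95 ± 0.443 at 1 month (adjusted p = 0.167), neither past the threshold. The trend was not called with the Gapdh ratio as a covariate (2.24, adjusted p = 0.0859) or over the 8 restricted pools alone (1.53, adjusted p = 0.063). In those fits 0.0315% and 0.483% of all probe sets were called by dose.

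**Figure D1:**
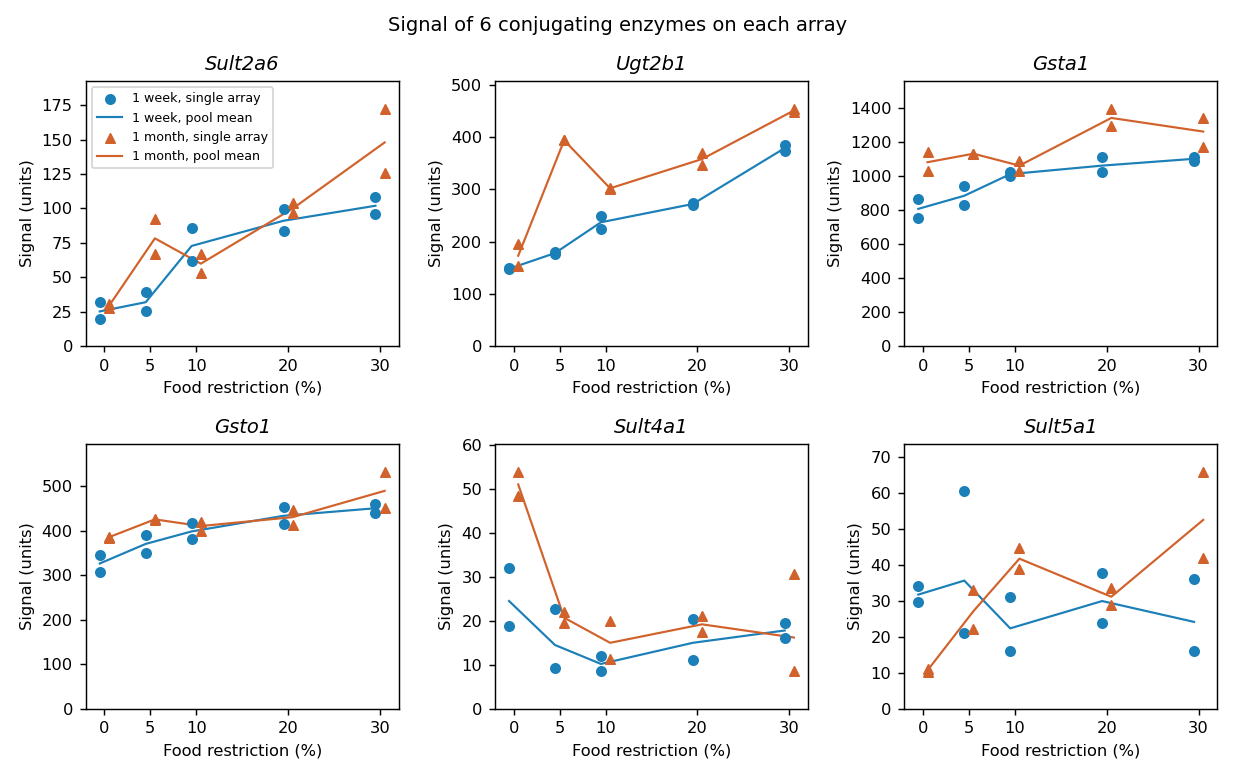
Signal in units on each array (points, 2 per pool) against percent food restriction for 6 members, with lines through the pool means at 1 week and 1 month; each panel starts at 0. Sult2a6 and Ugt2b1 are highest at 30% and lowest in control at both durations, Sult4a1 is highest in the 1 month control pool, and Sult5a1 is above its control at every level only at 1 month.

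The cluster neighbours of Sult2a6 gave no measurable level. Sult2a1 pools ran from 1.01 to 7.5 units and Sult2a2 pools from 1.43 to 9.57 units, all 10 of each under the lowest mean signal tested. At those signals both probe sets read above their control in 7 of 8 restricted pools. The probe sequences were not used here, so how far the 3 probe sets separate these copies is unknown and the Sult2a6 value is uncertain to that extent. Sult2a enzymes are known to be higher in the female than in the male rat liver. The female-biased genes Cyp2c12 and Hao2 fell with dose, by 2.48 ± 0.468 (adjusted p = 0.0157) and by 0.46 ± 0.0795 (adjusted p = 0.0117), and the third tested, Cyp3a9, had a slope of 0.09 ± 0.185 (adjusted p = 0.847). Of 5 male-biased genes Cyp2a2 fell by 0.55 ± 0.0685 (adjusted p = 0.00298) and 4 did not pass.

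Ugt2b1 rose along the levels with little spread between arrays of a pool. Its 1 week signal was 149 and 148 units in control, 176 and 181 at 5%, 225 and 249 at 10%, 270 and 274 at 20%, and 373 and 385 at 30%. Its 1 month signal was 196 and 153 units in control, 395 and 394 at 5%, 301 and 302 at 10%, 347 and 370 at 20%, and 453 and 449 at 30%. All 8 restricted arrays lay above both control arrays at each duration. The order of the pools followed the diet levels at 1 week, and at 1 month the 5% pool lay above the 10% and 20% pools. Ugt2b1 rose by 1.13 ± 0.210 over 30 percentage points, a 2.20-fold change (adjusted p = 0.0148), with slopes of 1.29 ± 0.304 at 1 week (adjusted p = 0.0772) and 0.98 ± 0.304 at 1 month (adjusted p = 0.286). The call was lost without the 1 week control pool (1.06, adjusted p = 0.0534) or the 1 week 30% pool (1.07, adjusted p = 0.0881). It was also lost with the Gapdh ratio (1.51, adjusted p = 0.0859) or the actin ratio (1.39, adjusted p = 0.0509) as a covariate, on the deposited scale (adjusted p = 0.0881), with median centring (adjusted p = 0.055) and over the restricted pools alone (0.78, adjusted p = 0.119).

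Ugt2b1 belongs to a gene cluster with Sult1d1, Sult1b1, Ugt2a1, Ugt2b, Ugt2b15, Ugt2b35 and Ugt2b7, which span 14 protein-coding genes in gene order. None of its tested neighbours was called by dose. Ugt2b35 had a slope of 0.08 ± 0.0742, Sult1b1, which acts on thyroid hormones and phenols, one of 0.02 ± 0.128, and Ugt2a1, known from the olfactory epithelium, one of 0.29 ± 0.218. Ugt2b15 went from 225 to 522 units over the pools with a slope of 0.30 ± 0.346 (adjusted p = 0.706). Its 1 week arrays read 241 and 233 units in control, 426 and 318 at 5%, 534 and 443 at 10%, 488 and 480 at 20%, and 217 and 233 at 30%. The 3 middle levels were above control there and the 30% pool was not. At 1 month Ugt2b15 read 359 and 448 units in control, 277 and 328 at 5%, 333 and 217 at 10%, 480 and 549 at 20%, and 500 and 545 at 30%, so the lower levels were below control and the upper ones above it.

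Gsta1 and Gsto1 rose by small amounts. Gsta1 is an alpha class enzyme that is abundant in hepatocytes. Its 1 week arrays read 863 and 752 units in control, 828 and 941 at 5%, 1000 and 1020 at 10%, 1110 and 1020 at 20%, and 1090 and 1110 at 30%. Its 1 month arrays read 1140 and 1030 units in control, 1130 and 1130 at 5%, 1090 and 1030 at 10%, 1290 and 1390 at 20%, and 1170 and 1340 at 30%. The groups overlapped at both durations, at 1 week only through 1 array of the 5% pool. Gsta1 rose by 0.35 ± 0.0847, a 1.28-fold change (adjusted p = 0.0422). That call was lost without any 1 of 6 pools, which were the 1 week control (adjusted p = 0.129), 5% (0.0785 adjusted p), 20% (0.0841 adjusted p) and 30% (0.128 adjusted p) pools and the 1 month control (0.0999 adjusted p) and 20% (0.0764 adjusted p) pools.

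Gsto1, an omega class enzyme with thioltransferase and dehydroascorbate reductase activity, was higher than control in all 8 restricted pools. At 1 week it read 308 and 344 units in control, 391 and 350 at 5%, 417 and 380 at 10%, 453 and 414 at 20%, and 460 and 440 at 30%. At 1 month it read 384 and 386 units in control, 426 and 424 at 5%, 420 and 399 at 10%, 413 and 447 at 20%, and 531 and 450 at 30%. No restricted array overlapped the control arrays at either duration. Gsto1 rose by 0.36 ± 0.0820, a 1.29-fold change (adjusted p = 0.034). That call was lost without any 1 of 7 pools, which were the 1 week control (adjusted p = 0.107), 5% (0.061 adjusted p), 20% (0.0711 adjusted p) and 30% (0.114 adjusted p) pools and the 1 month control (0.103 adjusted p), 20% (0.0519 adjusted p) and 30% (0.0749 adjusted p) pools. Neither Gsta1 nor Gsto1 was called on the deposited scale (adjusted p = 0.798 and 0.8), with median centring (adjusted p = 0.353 and 0.358) or with the Gapdh ratio as a covariate (adjusted p = 0.151 and 0.204).

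Of the 29 tested members, Gsto1 and Ugt2b1 had every restricted array above both control arrays at both durations (6.9% beside 2.83% of all probe sets tested). None had every restricted array below both control arrays at both durations (0% beside 2.50%).

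Setting all restricted pools against the control pools as a single step called 3 of 29 members (10.3% beside 5.27% of all probe sets tested, 3.16% higher and 2.11% lower). Sult2a6 and Ugt2b1 were higher and Sult4a1 was lower, and 26 did not pass. Sult2a6 rose by 1.54 ± 0.372 on the log2 scale, a 2.90-fold change (adjusted p = 0.0307), from a control mean of 27.2 to 78.8 units. Ugt2b1 rose by 0.95 ± 0.213, a 1.93-fold change (adjusted p = 0.0234), from 160 to 309 units. At an unadjusted p under 0.05 there were 9 members (31.0%) and 1797 of all probe sets (18.9%).

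Sult4a1, a sulfotransferase best known from brain, fell as a step, and its dose trend did not pass. Its 1 week arrays read 31.9 and 18.8 units in control, 22.7 and 9.29 at 5%, 12 and 8.62 at 10%, 11 and 20.4 at 20%, and 19.6 and 16.1 at 30%. Its 1 month arrays read 53.8 and 48.4 units in control, 19.5 and 22.0 at 5%, 20.0 and 11.3 at 10%, 17.5 and 21.1 at 20%, and 30.7 and 8.54 at 30%. All 8 restricted pools were under their control pool, and the arrays did not overlap at 1 month but did at 1 week. The log2 step was -1.17 ± 0.254 (adjusted p = 0.0206), at least 2.21-fold lower with the 1 pool under 11.7 units raised to that level, and the dose trend was -0.66 ± 0.428 (adjusted p = 0.455). Its arrays differed from each other by an SD of 0.615 on the log2 scale within a pool, beside a median of 0.122 over the tested members.

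The step calls were lost without either control pool, where far fewer of all probe sets were called as well. Without the 1 month control pool 0 members were called (Sult2a6 1.43, adjusted p = 0.291; Ugt2b1 0.79, adjusted p = 0.304; Sult4a1 -0.80, adjusted p = 0.379). Without the 1 week control pool the same 3 missed the threshold (Sult2a6 1.64, adjusted p = 0.194; Ugt2b1 1.10, adjusted p = 0.12; Sult4a1 -1.53, adjusted p = 0.0571) and Sult5a1 was called as higher. Sult2a6 was also not called without the 1 week 10%, 1 week 20% or 1 month 20% pool (adjusted p = 0.0528, 0.0525 and 0.0568), and Sult4a1 was not called on the deposited scale (-0.91, adjusted p = 0.0767) or with 1 array per pool (-1.15 and -1.18, adjusted p = 0.222 and 0.0642).

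**Figure D2:**
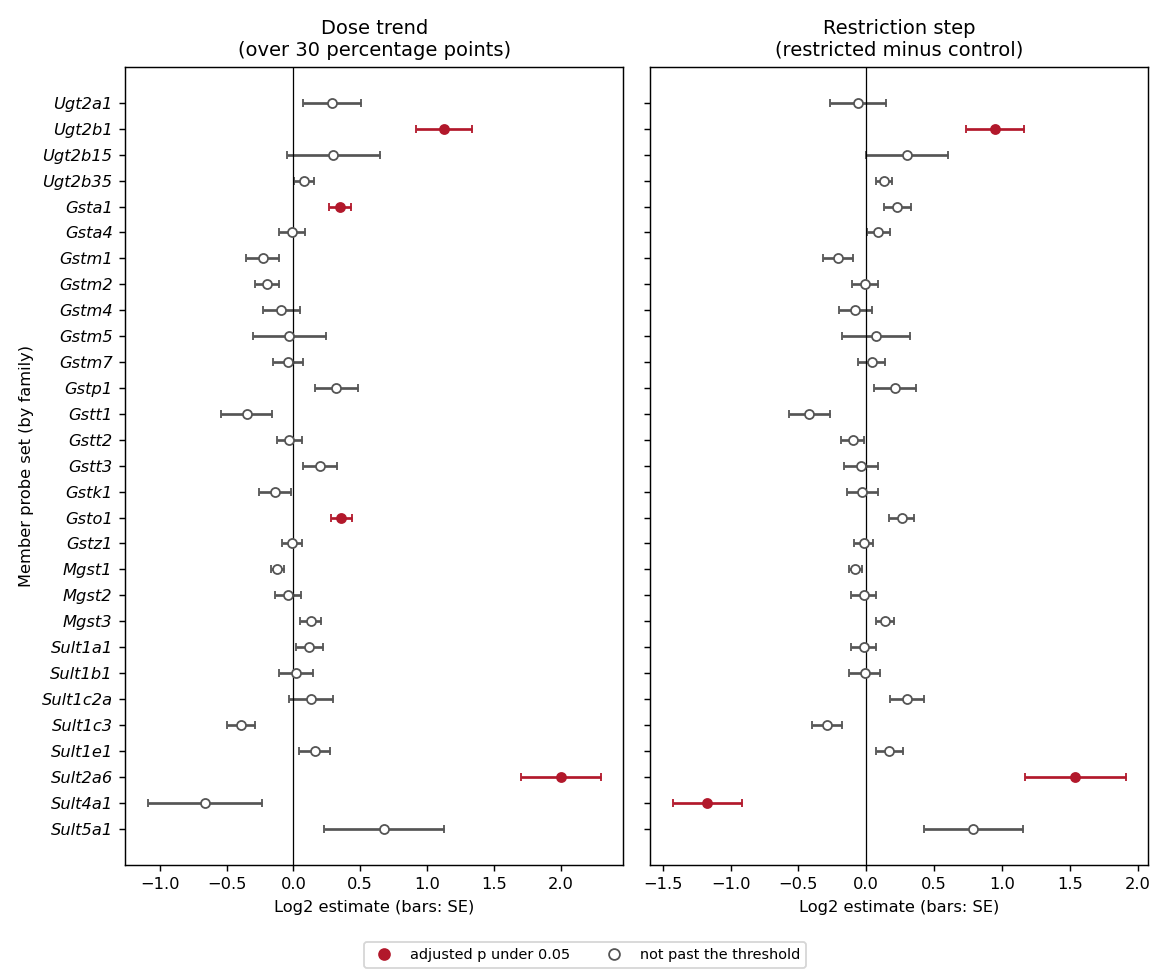
Log2 estimates (points) with standard errors (bars) for the 29 tested members, left for the dose trend over 30 percentage points and right for restricted minus control pools; filled red points have an adjusted p under 0.05. Sult2a6 and Ugt2b1 are to the right of 0 and filled in both panels, Sult4a1 is filled only in the right panel, and most Gst and Mgst members lie close to 0.

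With each level tested as a separate step, Sult2a6 and Ugt2b1 were the members called at 30% restriction (2 of 29, 6.9% beside 4.53% of all probe sets tested, 2.45% higher and 2.08% lower). The 30% pools exceeded the control pools by 2.17 ± 0.295 for Sult2a6, a 4.51-fold change (adjusted p = 0.00303). For Ugt2b1 the difference was 1.37 ± 0.196, a 2.58-fold change (adjusted p = 0.00396). Gsto1 followed with 0.41 ± 0.102 and did not pass (adjusted p = 0.0534). The actin ratio was lowest in the 30% pools. With it as a covariate neither Sult2a6 (2.85, adjusted p = 0.0812) nor Ugt2b1 (1.65, adjusted p = 0.104) was called. Of all 9520 probe sets 1 was called in that fit (0.0105%), beside 431 as reported. Ugt2b1 was also not called without the 1 week 30% pool (1.23) or the 1 month control pool (1.21), each of which left 1 pool in a group.

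At the lower levels the same tests called fewer members. At 5% restriction 0 of 29 were called (limma, beside 0.452% of all probe sets tested, 0.273% higher and 0.179% lower). An unadjusted p under 0.05 was found for 3 (10.3%) beside 9.83% of all probe sets. Without the 1 week 5% pool that level rested on 1 pool, so calls without it are not given. At 10% restriction 1 was called (beside 2.18%, 1.33% higher and 0.851% lower), which was Sult4a1 with a log2 difference of -1.52 ± 0.325 (adjusted p = 0.0446), and its 1 week 10% pool lay under 11.7 units. That call was lost without the 1 week control (adjusted p = 0.0718), 10% (0.211 adjusted p) or 20% (0.0729 adjusted p) pool and without the 1 month control (0.36 adjusted p), 10% (0.218 adjusted p) or 20% (0.0767 adjusted p) pool. Without the 5% pool of 1 week or of 1 month 3 were called, adding Sult2a6 and Ugt2b1. The share of all probe sets called was then 3.84% or 3.8%.

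At 20% restriction 2 were called (beside 3.80%, 2.16% higher and 1.64% lower). The difference was 1.81 ± 0.295 for Sult2a6, a 3.52-fold rise (adjusted p = 0.0102), and 0.96 ± 0.196 for Ugt2b1, a 1.95-fold rise (adjusted p = 0.0277). Both were lost without the 1 week control pool (adjusted p = 0.0617 and 0.0757), the 1 week 20% pool (0.162 and 0.266 adjusted p) or the 1 month control pool (0.105 and 0.226 adjusted p), and Ugt2b1 also without the 1 month 20% pool (1.01, adjusted p = 0.115).

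Each restricted pool was also set against the control pool of its duration by size alone, counting a gap of 1 or more in log2 pool means where the array signals of the pools did not overlap (the rule of size). At 1 week 0, 3, 2 and 2 of the 29 members passed at 5, 10, 20 and 30%, beside 3.78, 3.62, 4.93 and 5.87% of all probe sets tested. At 1 month 4, 3, 4 and 4 passed, beside 5.62, 5.96, 4.72 and 4.96%. The members behind these counts were few. Sult2a6 passed upward in 7 of 8 pools, Sult4a1 downward in 5, Ugt2b1 and Sult5a1 upward in 4 each and Ugt2b15 upward in 2, and no other tested member passed. There is no test in these counts, since each side is 1 pool.

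**Figure D3:**
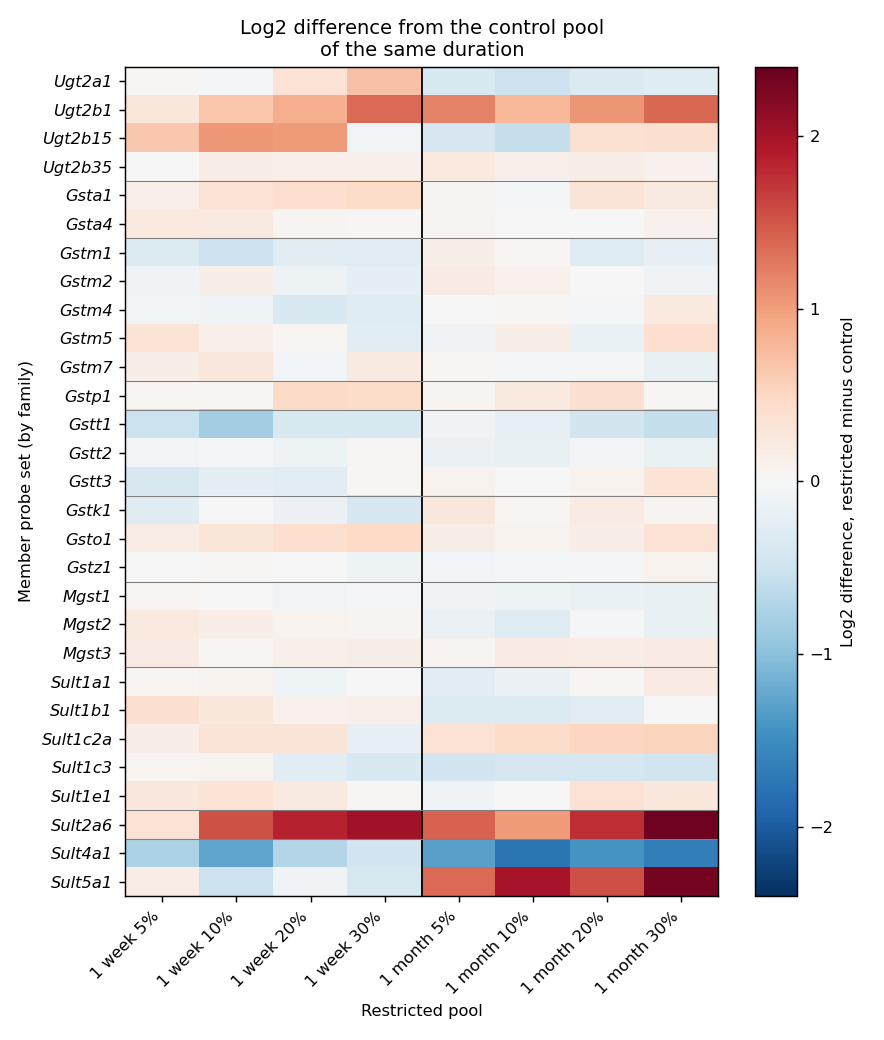
Log2 difference of each restricted pool from the control pool of its duration, for the 29 tested members by family, with red for higher and blue for lower. Sult2a6 and Ugt2b1 are red in all 8 pools, Sult4a1 is blue in all 8, and Sult5a1 is deep red only in the 4 pools at 1 month.

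Sult5a1 was the member whose slopes differed most between durations. At 1 week it read 29.6 and 34.1 units in control, 60.6 and 21.1 at 5%, 31.0 and 16.1 at 10%, 37.7 and 23.9 at 20%, and 36.2 and 16.2 at 30%. At 1 month it read 11 and 10.3 units in control, 33.1 and 22.3 at 5%, 39.0 and 44.8 at 10%, 33.6 and 28.9 at 20%, and 65.9 and 42.0 at 30%. Every restricted array exceeded both control arrays at 1 month, where the control pool lay under the lowest mean signal tested, and the groups overlapped at 1 week. Its slope was -0.37 ± 0.490 at 1 week and 1.72 ± 0.490 at 1 month (adjusted p = 0.241). The difference of slopes, 2.09 ± 0.693, did not pass (adjusted p = 0.903).

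No member passed for the separate slopes, for their difference or for duration. For the 1 week slope 0 of 29 were called beside 0.714% of all probe sets (limma). An unadjusted p under 0.05 was found for 7 members (24.1%) beside 15.9% of all probe sets. For the 1 month slope 0 were called beside 0.0315%, and 9 had such a p (31% beside 10.5% of all probe sets). For the difference of slopes 0 were called beside 0% of all probe sets, and 4 members and 525 probe sets (5.51%) had such a p. Ugt2a1 (-0.90) and Gstm4 (0.53), a mu class enzyme, came after Sult5a1 by p, both at an adjusted p of 0.903. Between 1 month and 1 week 0 members were called beside 0.336%. An unadjusted p under 0.05 was found for 5 (17.2%) beside 10.7% of all probe sets. The log2 difference, 1 month minus 1 week, was 0.28 ± 0.0609 for Gsta1 (adjusted p = 0.0869), 0.20 ± 0.0525 for Gstz1, the maleylacetoacetate isomerase of tyrosine breakdown (adjusted p = 0.155), and -0.24 ± 0.0752 for Sult1c3 (adjusted p = 0.244), none past the threshold.

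Most of the glutathione-linked members had slopes close to 0. Of 14 tested Gst members 2 rose by dose and 12 did not pass, and of 3 Mgst members none passed. The Gst slopes ran from -0.35 to 0.36 and the Mgst slopes from -0.12 to 0.13. Mgst1, a detoxifying enzyme of the endoplasmic reticulum and outer mitochondrial membrane, had pool signals of 4470 to 5070 units, a 1.13-fold range, and a slope of -0.12 ± 0.0487 (adjusted p = 0.198). Mgst3 ran from 538 to 644 units, with all 8 restricted pools above control and a slope of 0.13 ± 0.0777 (adjusted p = 0.421).

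The mu class genes Gstm5, Gstm7, Gstm3, Gstm2, Gstm1 and Gstm4 lie in 1 cluster. The 5 tested gave no call, with Gstm1 at -0.23 ± 0.123 (1320 to 1990 units) and Gstm2 at -0.20 ± 0.0892 (751 to 1030 units). Gsta4, which clears the lipid peroxidation product 4-hydroxynonenal, had a slope of -0.01 ± 0.0959, Gstk1 of mitochondria and peroxisomes one of -0.14 ± 0.120 and Gstz1 one of -0.01 ± 0.0732. Gstp1, the pi class enzyme that is low in normal rat hepatocytes and marks early neoplastic foci, ran from 36.2 to 49.7 units with a slope of 0.32 ± 0.160 (adjusted p = 0.314).

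Gstt1, a theta class enzyme, lay below its control in all 8 restricted pools without passing. At 1 week it read 112 and 138 units in control, 76.8 and 98.7 at 5%, 68.5 and 71.5 at 10%, 104 and 90.2 at 20%, and 93.2 and 101 at 30%. At 1 month it read 144 and 113 units in control, 115 and 127 at 5%, 109 and 114 at 10%, 98.1 and 88.6 at 20%, and 75.7 and 96.9 at 30%. The arrays did not overlap at 1 week and overlapped at 1 month in the 5% and 10% pools. Its step was -0.42 ± 0.151 (adjusted p = 0.142), while its cluster neighbours Gstt2 and Gstt3 had steps of -0.10 ± 0.0839 and -0.04 ± 0.127.

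The sulfotransferases of the Sult1 family gave no call by dose or step. Sult1e1, the estrogen sulfotransferase, ran from 2330 to 3440 units with a slope of 0.16 ± 0.116 (adjusted p = 0.495), and Sult1a1, which acts on phenols, from 1880 to 2600 units with a slope of 0.12 ± 0.102 (adjusted p = 0.586). Sult1c3 came nearest to the threshold among members with a negative slope, at -0.39 ± 0.105 (adjusted p = 0.0616). It was called as lower by dose without the first array of each pool and without the 1 month 5% pool. A fit of single arrays with the pool as a random block called it as lower too. At 1 week it read 1750 and 1620 units in control, 1890 and 1620 at 5%, 1800 and 1720 at 10%, 1390 and 1380 at 20%, and 1280 and 1340 at 30%. At 1 month it read 1690 and 1690 units in control and 1140 to 1430 on the 8 restricted arrays, all below control. At 1 week only the 20% and 30% arrays were below both controls. Sult1c2a, of the same gene cluster, had a slope of 0.13 ± 0.166 and a step of 0.30 ± 0.126 (adjusted p = 0.213).

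The 13 probe sets under the signal filter, for 10 genes with no tested probe set, had no test and little measurable signal. For 11 of them, which were those of Ugt2b, Ugt2b7, Ugt8, Gsta3, Sult1d1, Sult2a1, Sult2a2 and Sult6b2 and 1 of the 2 for Sult2b1, all 10 pools lay under 11.7 units, and the other Sult2b1 probe set reached 12 units in 1 pool. Gstm3 was the exception on the control side. Its control pools had 17.3 units at 1 week and 14.3 at 1 month, and its restricted pools had 5.43, 2.79, 2.38 and 1.69 units at 1 week and 1.64, 3.57, 3.25 and 2.96 at 1 month for 5, 10, 20 and 30%. Every restricted array was below both control arrays at both durations, but all 8 restricted pools were under 11.7 units, so the size of the gaps is not given. With restricted pools raised to 11.7 units, Gstm3 was at least 1.35-fold lower than its control mean of 15.7 units. The first Sult2b1 probe set was lower in all 8 restricted pools too, but at 10.8 and 8.99 units in control both sides were under that level, so no fold is given.

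**Figure D4:**
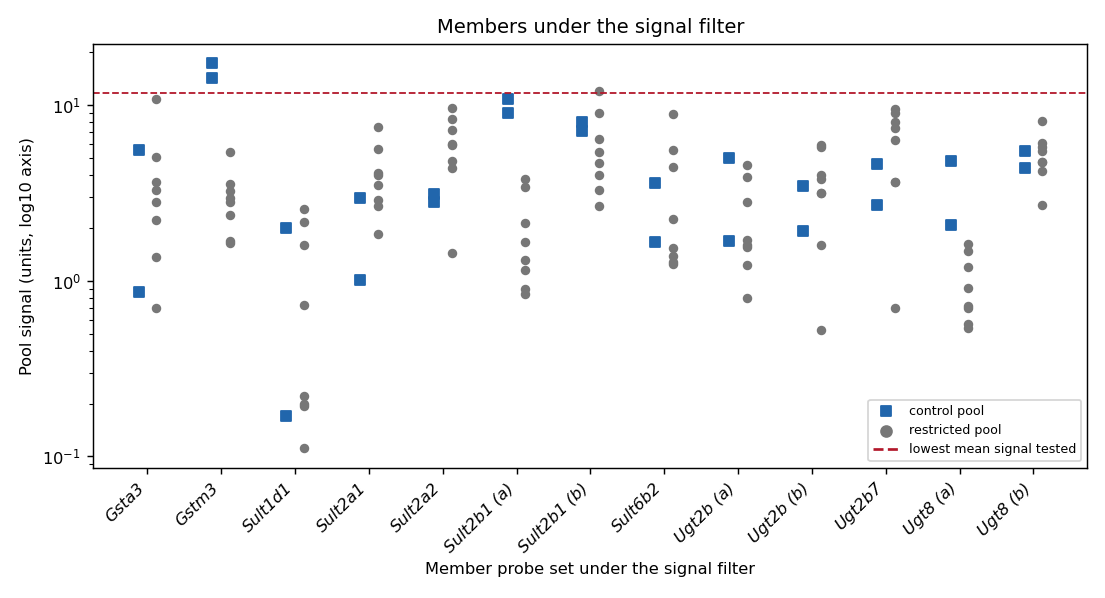
Pool signals in units on a log10 axis for the 13 member probe sets under the signal filter, with control pools as blue squares, restricted pools as grey circles and the lowest mean signal tested, 11.7 units, as a dashed line; letters a and b tell apart the probe sets of 1 gene. Only the 2 Gstm3 control pools and 1 restricted pool of a Sult2b1 probe set lie above the line.

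The genes around the supply and removal of the conjugating groups were read from lists written by known function. Of all probe sets tested 1.80% rose and 1.96% fell by dose, and 3.16% rose and 2.11% fell by the step. Calls of list genes are given at the reported setting only. Over all probe sets the 358 dose calls became 58 on the deposited scale and 3 with the Gapdh ratio as a covariate. For UDP-glucuronate supply and hydrolysis, 0 of 4 tested genes rose by dose and 1 fell. Ugdh, the dehydrogenase that makes UDP-glucuronate, fell by 0.49 ± 0.0981 (adjusted p = 0.0202). By the step Ugp2, which makes its precursor UDP-glucose, rose by 0.82 ± 0.171 (adjusted p = 0.0177). The dose slope of Ugp2, 0.77 ± 0.238, did not pass (adjusted p = 0.0946). Slc35a1 and the glucuronide hydrolase Gusb, which do not make UDP-glucuronate, had dose slopes of -0.09 ± 0.110 and -0.01 ± 0.108. The list's median slope was -0.05 beside 0 over all probe sets. For PAPS supply and sulfate removal, 0 of 13 rose and 1 fell by dose, with a median of -0.08, and 0 were called by the step. Ethe1, a mitochondrial sulfur dioxygenase, fell by 0.71 ± 0.112 (adjusted p = 0.00744). Papss2, which makes PAPS in liver, had a slope of -0.28 ± 0.107 (adjusted p = 0.169).

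For glutathione synthesis and turnover, 2 of 19 rose by dose and 0 fell, with a median of 0.12. Nat8, which acetylates cysteine conjugates to mercapturic acids, rose by 2.94 ± 0.591 (adjusted p = 0.0207), and the glutaredoxin Glrx by 0.76 ± 0.136 (adjusted p = 0.0134). The glutamate-cysteine ligase subunits Gclm (0.54 ± 0.246) and Gclc (0.37 ± 0.182), which make the first bond of glutathione, did not pass (adjusted p = 0.26 and 0.304). Cth, which makes cysteine from cystathionine, fell by 1.21 ± 0.292 as a step (adjusted p = 0.0307). Nat8 rose as well by the step, and the other 17 genes did not pass.

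Of 11 tested genes listed around other conjugations, 1 rose by dose and 0 fell, with a median of 0.30. The list also holds the epoxide hydrolases Ephx1 and Ephx2, which do not conjugate, with slopes of 0.02 ± 0.0906 and 0 ± 0.159. Inmt, a methyltransferase for indoles and thioethers, rose by 1.84 ± 0.420 (adjusted p = 0.0347) and also by the step, by which Slc27a5, of bile acid conjugation, rose by 0.43 ± 0.0921 (adjusted p = 0.0203). Acsm5, a medium-chain acyl-CoA synthetase of the kind that starts glycine conjugation, had a slope of 1.17 ± 0.334 that did not pass (adjusted p = 0.0747). Of 3 tested exporters, Abcc2, the canalicular pump for conjugates, fell by 0.76 ± 0.119 (adjusted p = 0.00734) and 0 rose by dose. By the step Abcb1a was called as higher, from a control mean of 10.8 units, under the lowest mean signal tested, to 23.7 units.

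Among 15 tested regulators of these enzymes, 2 rose by dose, 1 fell and 12 did not pass, with a median of 0.10. Nr1i3, which encodes CAR, rose by 1.05 ± 0.204 by dose (adjusted p = 0.0176). Its step was 0.91 ± 0.195 (adjusted p = 0.02), from a control mean of 55.0 to a restricted mean of 103 units. Nr1i2, which encodes PXR, rose by 0.79 ± 0.140 by dose (adjusted p = 0.0126). Its step was 0.68 ± 0.141 (adjusted p = 0.0171), from 112 to 179 units. Keap1, which holds Nrf2 in check, fell by 0.72 ± 0.126 (adjusted p = 0.0117), and Nfe2l2, which encodes Nrf2, had a slope of -0.38 ± 0.142 (adjusted p = 0.17). Stat5b, a transducer of growth hormone signals, was lower as a step by 1.09 ± 0.202 (adjusted p = 0.0102), and its dose slope was -1.05 ± 0.285 (adjusted p = 0.0639).

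Of 14 antioxidant response genes other than the Gst genes, 0 rose and 3 fell by dose, with a median of -0.03. Pgd of the pentose phosphate pathway fell by 1.51 ± 0.294 (adjusted p = 0.0185), the malic enzyme Me1 by 1.27 ± 0.304 (adjusted p = 0.0422) and the transketolase Tkt by 0.85 ± 0.206 (adjusted p = 0.0453). By the step Aldh1a1, a retinaldehyde dehydrogenase, rose by 1.17 ± 0.240 (adjusted p = 0.016), Pgd, Tkt and the transaldolase Taldo1 fell, and 10 did not pass. Pgd, Me1 and Tkt also serve NADPH and sugar metabolism. Nqo1, a quinone reductase, had a slope of -0.24 ± 0.276 and Hmox1, the inducible heme oxygenase, one of -0.13 ± 0.238, neither past the threshold.

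**Figure D5:**
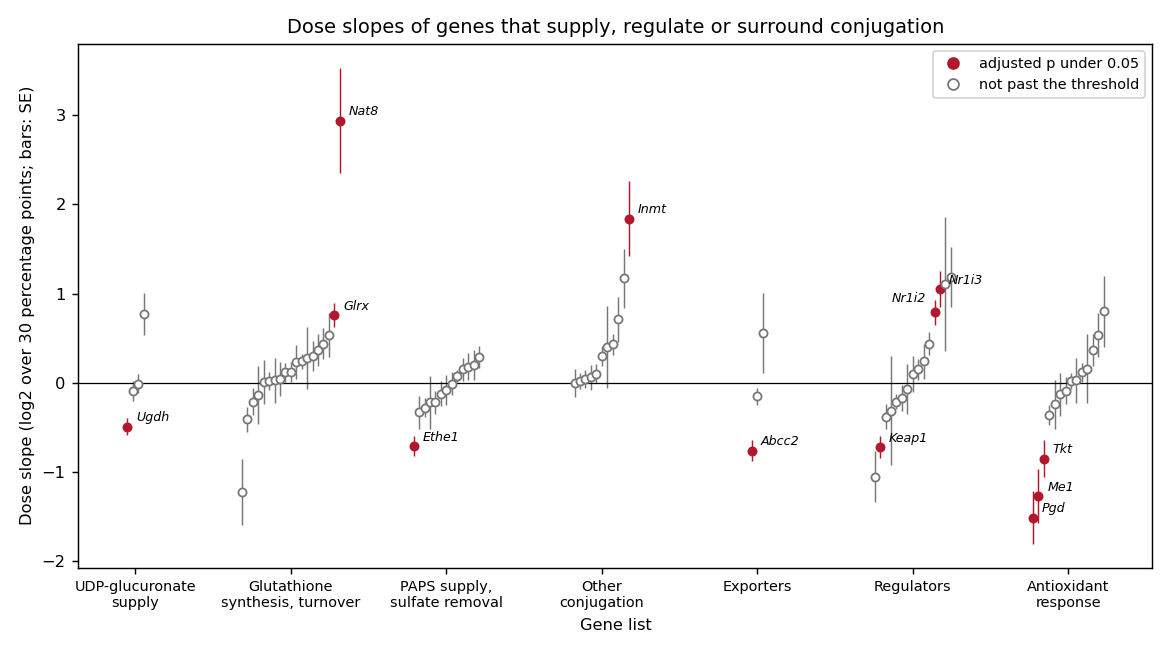
Dose slopes (log2 over 30 percentage points, points) with standard errors (bars) for the tested genes of 7 lists around conjugation, with filled red points for an adjusted p under 0.05. Nat8, Inmt, Nr1i3, Nr1i2 and Glrx are filled above 0, and Ugdh, Ethe1, Abcc2, Keap1, Tkt, Me1 and Pgd are filled below 0.

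A few markers of other cell types and liver zones were also called and most were not, and their part in the results was not tested. The summed signal of 5 endothelial markers was 204 to 246 units in the control pools and 267 to 331 in the restricted pools. Of 4 tested, Ehd3 rose by dose (1.17 ± 0.210, adjusted p = 0.0135) and not by the step (adjusted p = 0.544). Kdr rose by the step (0.60 ± 0.108, adjusted p = 0.00899) and not by dose (adjusted p = 0.116). Lyve1 and Pecam1 passed neither, with dose slopes of 0.41 ± 0.111 and 0.09 ± 0.351 and steps of 0.24 ± 0.128 and -0.11 ± 0.314. The sum of 6 pericentral hepatocyte markers, from the zone where many conjugating enzymes are known to be high, was 4420 to 4630 units in control and 5240 to 7160 in restricted pools, where Cyp2e1 made up most of it (control mean 2780 and restricted mean 4210 units). Of 5 tested pericentral markers Cyp2e1 rose by dose (0.62 ± 0.141, adjusted p = 0.0347) and 4 did not pass, with Oat at -0.05 ± 0.274 and Axin2 at -0.44 ± 0.295. The sum of 6 periportal markers was 7470 to 7650 units in control and 6680 to 9180 in restricted pools. Of these 6, Sds rose by dose (1.69 ± 0.415, adjusted p = 0.0459) and 5 did not pass. Their slopes were 0.39 for Hal, 0.30 for Gls2, 0.10 for Pck1, -0.03 for Ass1 and -0.14 for Cyp2f4. The sum of 4 bile duct markers, 3 of them under the lowest mean signal tested, was 66.5 to 77.0 units in control and 42.8 to 59.9 in restricted pools. Sums overlapped between control and restricted pools for Kupffer cells (282 to 443 and 293 to 419 units), stellate cells (386 to 511 and 360 to 591 units) and red cells (1170 to 2110 and 997 to 1870 units). No marker of these 3 types was called by dose or step.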

How the data were processed

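The deposited intensity values, 1 per probe set on a linear scale, came from MAS5, run by the authors (per the submitters' processing notes); neither the version nor the scaling target is given in the sources used here. Zeros (32 values) took the smallest positive value on their array, and log2 signals of all 15923 probe sets were quantile normalized. The 57 control probe sets were then left out and the upper 60% by mean log2 signal were tested. Signals were expected to share a scale and did not, so quantile normalization is the reported setting. Of the tested probe sets 8120 had 1 gene in the platform annotation, 245 several and 1155 none. By gene identifier 38 of 39 member genes matched the current rat table, with 0 symbols changed.

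The 2 arrays of a pool were averaged on the log2 scale (n = 10 pools) and fitted in R 4.3.3 using limma 3.58.1, with a mean-variance trend in eBayes. Tests were two-sided and p-values were adjusted by Benjamini-Hochberg over the 9520 probe sets. The dose trend and the step had duration as a covariate, the duration test had percent restriction, and slopes per duration came from 1 fit. The number of pools limits the precision. Only the dose trend was checked on simulated data, and the other tests were not. Folds against a pool under 11.7 units are bounds with it raised to that level. Members, lists and tests were chosen with earlier results of these data known. Named members were those past a threshold, of smallest p, brightest in their family or past the rule of size in 3 or more pools, and a set of well-known ones. Alternatives were the deposited scale, median centring, 16 units added before log2, no filter, no variance trend, RNA quality ratios as covariates, a block fit and leaving out arrays or pools. The actin ratio, the restricted pools alone and the tests at 5, 10 and 20% were added after seeing the data. Array numbers do not pair pools: over 45 pairs of arrays numbered 1 from different pools, deviations from the pool mean correlated at -0.0473 to 0.121.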

Additional observations from a re-analysis of the deposited data

How the results depend on the processing

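The calls of Sult2a6, Ugt2b1, Gsta1, Gsto1 and Sult4a1 by dose, step or diet level kept their sign in every alternative run; the signs of members that were not called were not followed. For the dose trend, reported with 4 members called, the count was 1 on the deposited scale, with median centring and with no variance trend. It was 0 with the Gapdh ratio as a covariate, 2 with the actin ratio and 0 over the restricted pools alone. Without the first array of each pool it was 4, with Sult1c3 as lower in place of Gsto1, and without the second array 2. Leaving out 1 pool gave 1 to 5, and the 5 included Sult1c3 as lower. Over all probe sets the dose count of 358 became 58 on the deposited scale and 143 with median centring. It became 3 with the Gapdh covariate, 45 with the actin one and 46 over the restricted pools alone. Counts over all probe sets also moved in the other tests, so a changed member count is not by itself particular to the members. Sult2a6 stayed past the threshold in 19 of 21 alternatives (slopes 1.53 to 2.55), Ugt2b1 in 13 (0.78 to 1.51), Gsta1 in 8 and Gsto1 in 6. For the step, reported with 3, the count was 5 with no signal filter, where Gstm3 and Sult2b1 were added as lower, 1 with no variance trend and with the Gapdh ratio, and 0 without the second arrays; leaving out 1 pool gave 0 to 4. For 30% against control, reported with 2, it was 1 with no variance trend and 0 with the actin ratio, and leaving out 1 pool gave 1 to 2. With the actin ratio 1 of all 9520 probe sets was called at 30%. For 5% against control, reported with 0 members, the count was 1 on the deposited scale, beside 1.18% of all probe sets. For 10%, reported with 1 (Sult4a1), it was 2 on the deposited scale (Sult2a6 and Ugt2b1, without Sult4a1) and 2 with median centring (Sult2a6 and Sult4a1). With the actin ratio it was 1, Sult2a6 in place of Sult4a1. It was 0 with no filter, no variance trend, the Gapdh ratio or 1 array per pool, and 0 to 3 without 1 pool. Sult4a1 at 10% stayed past the threshold in 7 of 20 alternatives. For 20%, reported with 2, it was 4 on the deposited scale, 1 with median centring, 0 with no variance trend, 1 without the second arrays and 0 to 2 without 1 pool. The 1 week slope, reported with 0, gave 2 over the restricted pools alone and 0 to 3 without 1 pool. The 2 were Ugt2b1 as higher and Sult1c3 as lower, beside 2.35% of all probe sets. By size, the counts with 16 units added fell to 1 for 10% and 20% at 1 week and to 2 for 5% and 1 for 20% at 1 month. A fit of single arrays with the pool as a random block and a replicate block for the array number called 5 members by dose (8.59% of all probe sets, 3.76% as reported), 4 by step (9.29 and 5.27%), 1 at 5% (2.90 and 0.452%), 3 at 10% (7.08 and 2.18%), 5 at 20% (9.30 and 3.80%) and 5 at 30% (10.5 and 4.53%), 4 for the 1 week slope (5.81 and 0.714%), 2 for the 1 month slope (1.65 and 0.0315%) and 3 for duration (2.07 and 0.336%). In the block fit the correlation estimated within a pool was 0.196 to 0.228, so its 2 arrays counted largely as separate samples. That fit added no rats or pools. Sult1c3 was the member it added by dose, as lower. With 1 pool per condition the spread between rats was not measured, and members near 11.7 units have little signal over background.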

Other observations

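Besides the members, 4 probe sets were listed with several genes of the same families, so their values cannot be given to 1 gene. The probe set listed with 2 genes of the Gsta family fell by 0.43 ± 0.0916 on the log2 scale over 30 percentage points (limma adjusted p = 0.0264, n = 10 pools), while Gsta1 rose. The probe set listed with a Sult1c gene and a second gene rose by 1.17 ± 0.269 (adjusted p = 0.0351). It read 39.9 to 44.8 units on the 1 week control arrays and 29.9 and 41.2 on the 1 month ones, with 87.1 and 106 at 30% after 1 week and 94.9 and 95.6 after 1 month. The 2 probe sets listed with 8 Ugt1a genes, which share exons, had slopes of 0.10 ± 0.129 (adjusted p = 0.746) and 0.28 ± 0.124 (adjusted p = 0.248). None of these 4 counts among the members called.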
